A study of Mus musculus with 10 samples.

Results

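Excitatory neurons of the cerebral cortex are marked by the vesicular glutamate transporters, which load synaptic vesicles, by the NeuroD transcription factors, and by factors that mark the layer in which a neuron lies. Of 9 such genes (Slc17a7, Slc17a6, Neurod6, Neurod2, Cux2, Rorb, Bcl11b, Tbr1 and Etv1), 8 had a probe set on the array. Every probe set annotated to a listed gene was taken, which gave 10 of the 22626 tested, and Slc17a7 had none in the annotation used. The 10 arrays each carried cerebral cortex RNA of 1 male mouse of 6 months, 5 labelled *p97FE65* null and 5 labelled *p97FE65* wild type, with no treatment. The null mice lack the full-length form of FE65, an adaptor protein encoded by Apbb1. The line was made in embryonic stem cells of another mouse strain and crossed to C57Bl/6J for 10 generations, so sequence of the stem cell strain may remain beside Apbb1 in null mice. The mice were littermates, and the labels do not tell which arrays came from which litter.

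Every direction below is that of the labels, which ran opposite to the study's at Gprc5b and Apbb1, so the genotype labels may be exchanged. The region of Gprc5b, an orphan G protein-coupled receptor gene on chromosome 7, that probe set 1451411_at reads is described by the study as higher in null brain, both on its arrays and by RT-PCR. On the arrays here it was lower in those labelled null, at 6.16 ± 0.87, against 7.39 ± 0.30 in those labelled wild type (log2 expression, SD, n = 5 each). The Apbb1 probe sets read a region that null mice still transcribe, so they cannot show the loss of the full-length form, and the study describes both as slightly lower in null mice. Here 1423893_x_at averaged 11.37 ± 0.08 on the arrays labelled null and 11.11 ± 0.09 on those labelled wild type, with no overlap (exact permutation p = 0.00794, the smallest that 5 arrays against 5 allow). The other, 1423892_at, averaged 11.10 ± 0.22 on the arrays labelled null and 10.99 ± 0.12 on those labelled wild type. Sizes under the labels were 2.35-fold for 1451411_at, 1.19-fold for 1423893_x_at and 1.08-fold for 1423892_at. The study gives the same size for each, in the opposite direction. The arrays alone could not settle which genotype stands behind a label. Over all probe sets the arrays correlated at 0.994 to 0.999, and their medians lay between 3.01 and 3.14.

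In development, Neurod2 and Neurod6 act in newly formed excitatory neurons as they differentiate, and both persist in the adult cortex. Cux2 is a marker of the upper layers and Rorb of the fourth layer, while Bcl11b, Tbr1 and Etv1 mark neurons of the deep layers, some of which project out of the cortex. Slc17a7 encodes the main glutamate transporter of adult cortical neurons, and Slc17a6 its relative, which is most abundant in the thalamus and brainstem. In a piece of cortex, fewer cells of a type and less RNA per cell cannot be told apart.

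Neurod6 and Tbr1 had the highest Pearson correlation of any pair of members across the arrays, and their promoters are shown for that reason. By rank, each correlated more closely with the Gm5454 and Etv1 probe set described below. Each window runs from 250 bases before to 50 bases after the gene's start, from RefSeq on build GRCm38.p6 (Neurod6, chr6:55681214-55681513, minus strand, and Tbr1, chr2:61804203-61804502, plus strand). Capitals mark CANNTG, the E-box that helix-loop-helix factors such as NeuroD proteins bind, which reads the same on both strands.
Neurod6: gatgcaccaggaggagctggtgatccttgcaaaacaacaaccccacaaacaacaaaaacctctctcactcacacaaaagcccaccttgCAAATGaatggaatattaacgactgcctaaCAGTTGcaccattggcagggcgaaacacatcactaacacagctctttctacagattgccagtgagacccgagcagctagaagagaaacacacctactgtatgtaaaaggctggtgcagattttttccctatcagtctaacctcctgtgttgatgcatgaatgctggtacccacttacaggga
Tbr1: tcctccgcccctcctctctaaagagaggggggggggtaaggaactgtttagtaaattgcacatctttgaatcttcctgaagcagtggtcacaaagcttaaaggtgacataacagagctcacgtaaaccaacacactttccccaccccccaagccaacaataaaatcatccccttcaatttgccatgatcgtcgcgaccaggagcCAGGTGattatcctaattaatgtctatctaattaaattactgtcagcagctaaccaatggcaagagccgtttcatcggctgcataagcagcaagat
The Neurod6 window held 2 E-boxes, CAAATG and CAGTTG, and the Tbr1 window held 1, CAGGTG. Of 32851 promoter windows of the same length, 72.3% held at least 1. CAGATG, one form of the E-box, was in neither window on either strand and was in 17.2% of all windows. GGTGTG, the core that T-box factors such as Tbr1 bind, was found once in the Neurod6 window, on the opposite strand, and in 19.0% of all windows.

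No member passed the test for a difference between the labels. The 10 probe sets had 0 with an adjusted p under 0.05 (limma, Benjamini-Hochberg over all probe sets tested), and over all probe sets the share was 0.0%. At an unadjusted p under 0.05 there were also 0 of 10, both by limma and by the methods' t-test, where 3.67% of all probe sets passed by limma and 3.39% by the other test. In none of the 10 did the arrays labelled null stand apart from those labelled wild type, as 0.623% of all probe sets did. Of the 10, 4 were higher and 6 were lower on the arrays labelled null. The median difference was -0.10 (log2, labelled null minus labelled wild type), beside 0.00 over all probe sets. It was -0.04 without the second wild type array, -0.15 without the fifth null array and -0.05 with array weights. Probe sets with a mean of at least 5, called bright here, numbered 7827, of which 65.5% were lower on the arrays labelled null. Among the 5 bright members the median difference was -0.22, beside -0.05 over all bright probe sets.

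**Figure D1:**
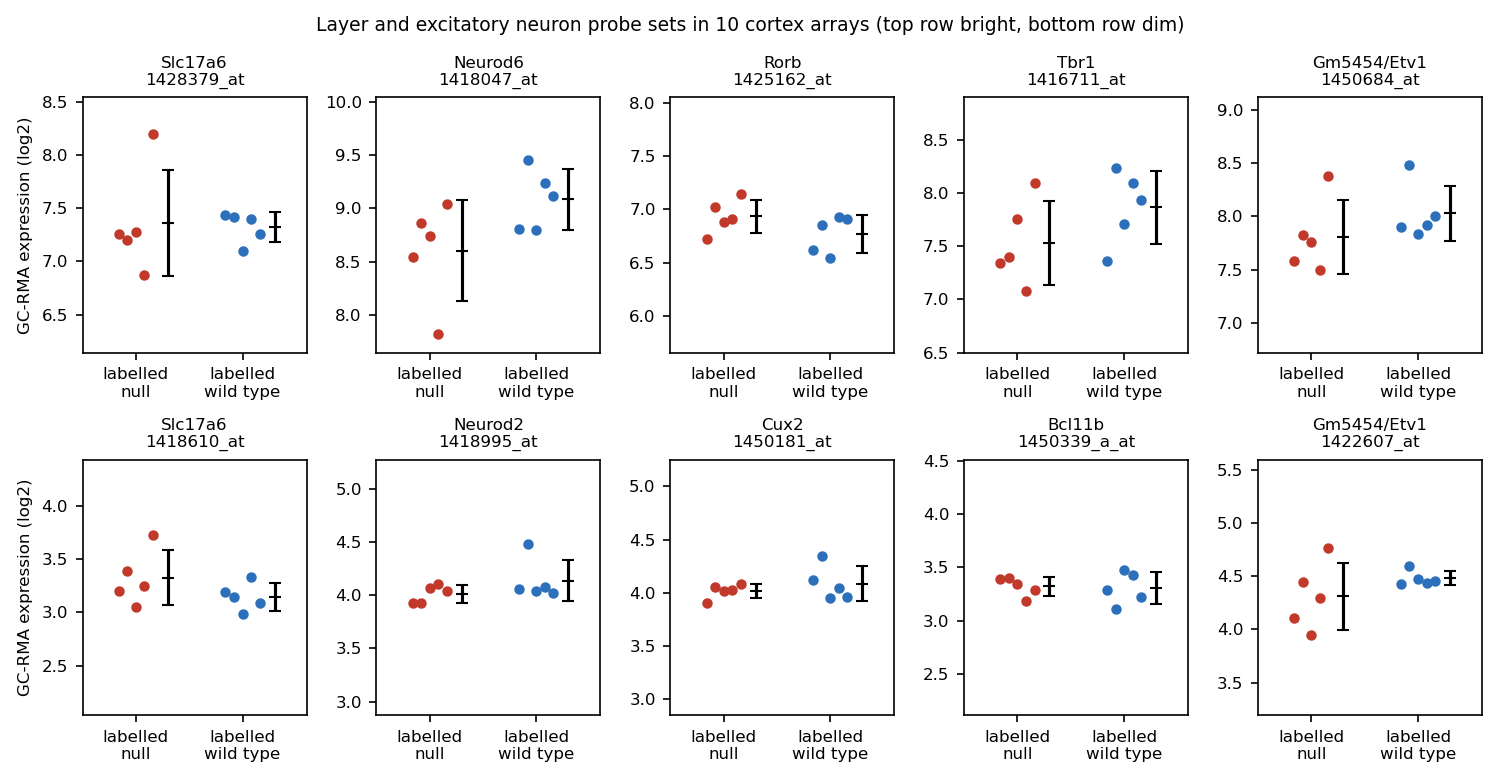
Each panel gives the log2 GC-RMA expression of 1 probe set, with 1 point per array (5 labelled null on the left, 5 labelled wild type on the right) and bars for the mean and SD. All panels span the same log2 range, each with its own offset, and in all 10 the ranges of the groups overlap.

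**Figure D2:**
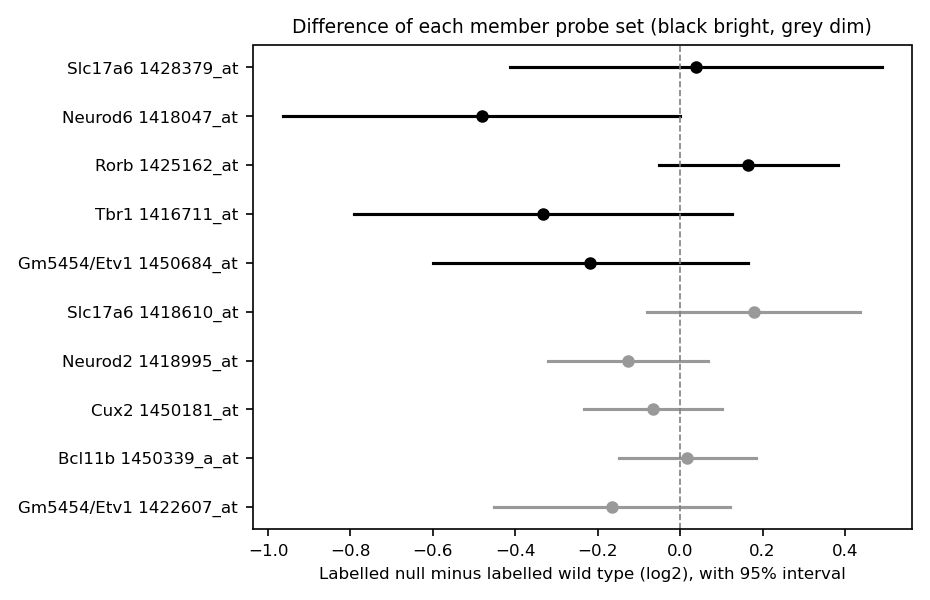
Points are the differences of labelled null minus labelled wild type (log2) from the limma fit, lines their 95% intervals, black for the 5 bright and grey for the 5 dim probe sets. Every interval includes 0, that of Neurod6 only just.

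Slc17a6, the glutamate transporter measured here, had 2 probe sets. The bright one, 1428379_at, read 7.26, 7.20, 7.28, 6.88 and 8.20 on the arrays labelled null, against 7.43, 7.42, 7.10, 7.40 and 7.26 on those labelled wild type. The fifth null array lay above all others and the fourth null array below all others, so the arrays labelled wild type lay inside the range of those labelled null. The means were 7.36 ± 0.50 in the null group and 7.32 ± 0.14 in the wild type group (SD, n = 5 each), a difference of 0.04 with a 95% interval of -0.41 to 0.49 (exact permutation p = 0.929, two-sided). Without the fifth null array the difference was -0.17 (exact permutation p = 0.143). The dim probe set, 1418610_at, averaged 3.33 ± 0.26 in the null group and 3.15 ± 0.13 in the wild type group, a difference of 0.18 ± 0.12 (SE, exact permutation p = 0.206), and without the fifth null array it was 0.08.

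The 2 Slc17a6 probe sets correlated at r = 0.72 over the 10 arrays (permutation p = 0.0488, which also is its adjusted value over the 2 genes with 2 probe sets). By rank they did not, with rho = 0.21 (permutation p = 0.561), and without the 2 arrays farthest from the median r was 0.32, so the relation rested on those arrays. Slc17a6 lies on chromosome 7, like Apbb1. In gene order it was 449th of the 959 measured genes there, before Homer2 (532nd), Apbb1 (649th) and Gprc5b (712th). The study found stem cell strain sequence at Homer2 and Gprc5b but did not map how far it extends. Whether Slc17a6 lies within it was not tested.

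Neurod6, a helix-loop-helix factor of cortical excitatory neurons, had the largest difference of the members. Probe set 1418047_at read 8.54, 8.86, 8.74, 7.82 and 9.04 on the arrays labelled null, against 8.81, 9.46, 8.80, 9.24 and 9.12 on those labelled wild type. The fourth null array was far below the rest, and 2 null arrays, replicates 2 and 5, reached into the wild type range. The means were 8.60 ± 0.47 in the null group and 9.08 ± 0.28 in the wild type group (SD, n = 5 each), a difference of -0.48 with a 95% interval of -0.96 to 0.00, or 1.4-fold.

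The Neurod6 difference missed the threshold, with limma p = 0.0502 unadjusted and 0.999 adjusted, and an exact permutation p = 0.0635 (two-sided), where the smallest p that 5 arrays against 5 allow is 0.00794. Of all bright probe sets 0.677% had a larger difference in either direction. Leaving out an array moved the difference between -0.59, without the fifth null array (exact permutation p = 0.0556), and -0.29, without the fourth null array (exact permutation p = 0.143). Under 5 of the 8 other settings of the fit, the unadjusted limma value came under the threshold, at 0.0410 to 0.0493, and the adjusted limma value never did. Within the groups Neurod6 varied more than 93.5% of the bright probe sets.

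Neurod2, a close relative that also drives the differentiation of cortical neurons, was dim. Probe set 1418995_at read 3.93, 3.93, 4.07, 4.10 and 4.04 on the arrays labelled null, against 4.06, 4.48, 4.04, 4.08 and 4.02 on those labelled wild type. The second wild type array stood alone above the others. The difference was -0.13 ± 0.09 (SE, exact permutation p = 0.214), and without that array it was -0.04.

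Cux2, a homeobox factor of upper-layer neurons, was also dim. Its probe set 1450181_at read 3.90, 4.06, 4.02, 4.03 and 4.08 on the arrays labelled null, against 4.12, 4.35, 3.95, 4.05 and 3.96 on those labelled wild type. Here too the second wild type array was the highest, and the remaining arrays of both groups were intermingled. The difference was -0.07 ± 0.08 (SE, exact permutation p = 0.508), with a 95% interval of -0.23 to 0.10.

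Rorb, a nuclear receptor that marks the fourth layer, had the largest positive difference of the bright members. Probe set 1425162_at read 6.72, 7.02, 6.89, 6.91 and 7.14 on the arrays labelled null, against 6.62, 6.85, 6.54, 6.93 and 6.91 on those labelled wild type. The fifth null array was the highest and the third wild type array the lowest, and the rest overlapped. The means were 6.94 ± 0.16 in the null group and 6.77 ± 0.18 in the wild type group (SD, n = 5 each), a difference of 0.17 with a 95% interval of -0.05 to 0.38 (exact permutation p = 0.159).

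Unlike the other bright members, Rorb varied within the groups about as much as a typical bright probe set, more than 44.7% of them. Leaving out an array moved the difference between 0.22, without the first null array (exact permutation p = 0.103), and 0.11, without the third wild type array (exact permutation p = 0.325). With quantile normalization of the arrays it was also 0.22, and its unadjusted limma value of 0.0266 was then under the threshold, as was that of 2.32% of all probe sets in the same direction.

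Bcl11b, a zinc finger factor of deep-layer neurons that project to the brainstem and spinal cord, was dim. Probe set 1450339_a_at read 3.39, 3.40, 3.34, 3.19 and 3.29 on the arrays labelled null, against 3.28, 3.11, 3.48, 3.43 and 3.22 on those labelled wild type. The lowest and highest values were both on arrays labelled wild type. The difference was 0.02 ± 0.08 (SE, exact permutation p = 0.833), with a 95% interval of -0.15 to 0.18.

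Tbr1, a T-box factor of deep-layer neurons that project to the thalamus, had the second largest difference. Probe set 1416711_at read 7.34, 7.40, 7.75, 7.07 and 8.09 on the arrays labelled null, against 7.36, 8.23, 7.70, 8.09 and 7.94 on those labelled wild type. The fifth null array was as high as the upper wild type arrays, and the first wild type array was as low as the first null array. The means were 7.53 ± 0.39 in the null group and 7.86 ± 0.34 in the wild type group (SD, n = 5 each), a difference of -0.33 with a 95% interval of -0.79 to 0.13 (exact permutation p = 0.206). Leaving out an array moved it between -0.47, without the fifth null array, and -0.22, without the fourth null array.

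Etv1, an ETS factor of deep-layer projection neurons, was read by 2 probe sets that the annotation assigns to both Gm5454 and Etv1, so signal of the 2 genes cannot be told apart. The bright one, 1450684_at, read 7.58, 7.83, 7.76, 7.50 and 8.38 on the arrays labelled null, against 7.90, 8.48, 7.84, 7.92 and 8.0 on those labelled wild type. In each group 1 array stood above the others, the fifth null array and the second wild type array. The means were 7.81 ± 0.35 in the null group and 8.03 ± 0.26 in the wild type group (SD, n = 5 each), a difference of -0.22 with a 95% interval of -0.60 to 0.16 (exact permutation p = 0.286). Without the second wild type array it was -0.10, and without the fifth null array -0.36.

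The dim Gm5454 and Etv1 probe set, 1422607_at, read 4.11, 4.44, 3.95, 4.30 and 4.76 on the arrays labelled null, against 4.43, 4.59, 4.48, 4.44 and 4.46 on those labelled wild type. The wild type arrays lay close together, and the null arrays spread to both sides of them. The difference was -0.17 ± 0.13 (SE, exact permutation p = 0.286), and without the third null array it was -0.08. Both Gm5454 and Etv1 probe sets correlated with each other at r = 0.75 (permutation p = 0.0133, adjusted over the 2 genes 0.0266) and rho = 0.81 (permutation p = 0.00722, adjusted 0.0144). Without the 2 arrays farthest from the median r was 0.56.

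Some arrays were at the extremes for several members. The fifth null array was the highest of the 10 arrays for 4 of the 10 member probe sets, and the second wild type array was the highest for 5. The fourth null array was the lowest for 4 of the 5 bright members. Over all bright probe sets the fifth null array was the highest for 26.9% and the second wild type array for 22.5%, while the fourth null array was the lowest for 20.3%.

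Without the fifth null array, 4 of the 10 member probe sets were lower in the null group at an unadjusted limma p under 0.05, where 5.64% of all probe sets were. These were Neurod6 (-0.59), Tbr1 (-0.47, exact permutation p = 0.0714) and the Gm5454 and Etv1 probe sets 1450684_at (-0.36, exact permutation p = 0.0159) and 1422607_at (-0.28, exact permutation p = 0.0238). None passed after adjustment over all probe sets, the lowest adjusted limma value being 0.661. This array gave the most members when left out, where leaving out any other gave 0 to 2 in either direction. The 4 are not independent, as they include both Gm5454 and Etv1 probe sets and genes that varied together across the arrays. The 5.64% covers dim as well as bright probe sets, so the shares are not directly comparable.

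The members also differed in how they moved with one another. For the brightest probe set of each of the 8 genes, 28 pairs were correlated over the 10 arrays, and 20 of them had a positive r, with a median of 0.36. After Benjamini-Hochberg adjustment over the 28 pairs, 3 had a p under 0.05 both by Pearson's r and by Spearman's rho. They were the 3 pairs among Neurod6, Tbr1 and the Gm5454 and Etv1 probe set 1450684_at.

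**Figure D3:**
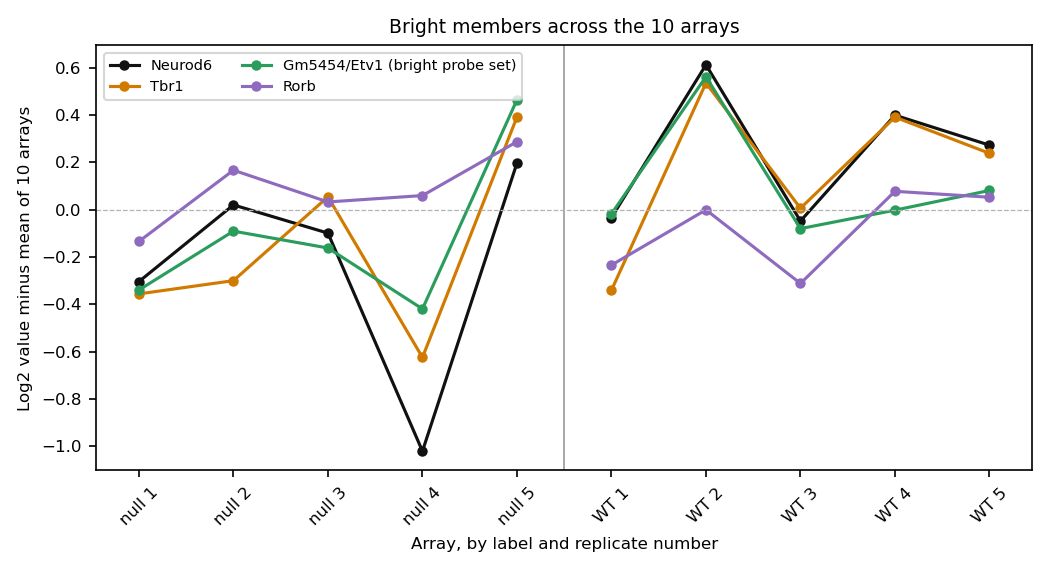
Lines join the log2 value of 4 bright members on each array, minus that member's mean over the 10 arrays, with the 5 arrays labelled null left of those labelled wild type. Neurod6, Tbr1 and Gm5454/Etv1 are high on null 5 and wild type 2 and low on null 4 (for Neurod6, 9.04, 9.46 and 7.82 before centring), and Rorb varies less. Replicates have no order, and the lines only help to follow a gene.

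Neurod6 and Tbr1 correlated at r = 0.87 (permutation p = 0.00016, adjusted 0.00448) and rho = 0.85 (permutation p = 0.0029, adjusted 0.0271). With each group centred on its mean r was 0.84, so the relation held within the groups. Without the 2 arrays farthest from the median it was 0.80.

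For Neurod6 and the Gm5454 and Etv1 probe set, r was 0.81 (permutation p = 0.00382, adjusted 0.0357) and rho was 0.92 (permutation p = 0.00053, adjusted 0.0148). Group-centred values gave 0.78, and without the 2 arrays farthest on Neurod6 r was 0.66. Tbr1 and the Gm5454 and Etv1 probe set had r = 0.83 (permutation p = 0.00132, adjusted 0.0185) and rho = 0.88 (permutation p = 0.00145, adjusted 0.0203). That r was 0.80 with groups centred and 0.68 without the 2 arrays farthest on Tbr1.

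Close correlations of this kind were common on these arrays. Tbr1 had an r above 0.8 with 11.6% of the bright probe sets, the Gm5454 and Etv1 probe set with 9.53%, Neurod6 with 4.74%, Slc17a6 with 2.66% and Rorb with 0.409%. Of the bright probe sets, 1.18% followed Neurod6 more closely than Tbr1 did, and 4.82% followed Tbr1 more closely than Neurod6 did. RNA quality, read as the 3′ minus 5′ signal of control genes, lay between -0.07 and 0.12 for Gapdh in the null group and between -0.04 and 0.27 in the wild type group. For Actb it lay between -0.03 and 0.37 in the null group and between -0.03 and 0.35 in the wild type group. Its part in these correlations was not tested.

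No other pair passed after adjustment. Neurod2 and Cux2 had r = 0.86 (permutation p = 0.0144, adjusted 0.0784), but rho was 0.47 (permutation p = 0.178, adjusted 0.498) and r was -0.00 without the 2 arrays farthest from the median, so that relation rested on those arrays. Slc17a6 and the Gm5454 and Etv1 probe set had r = 0.73 (permutation p = 0.0133, adjusted 0.0784) and rho = 0.72 (permutation p = 0.0245, adjusted 0.172). That r was 0.81 with groups centred and 0.49 without the 2 arrays farthest on Slc17a6. Bcl11b, dim on all arrays, had a negative r with each of the 7 other members, the lowest being -0.68 with Neurod2 (permutation p = 0.0196, adjusted 0.0784). For Bcl11b and Neurod2 rho was -0.42 (permutation p = 0.234, adjusted 0.505), and r was -0.30 without the 2 arrays farthest on Neurod2.

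**Figure D4:**
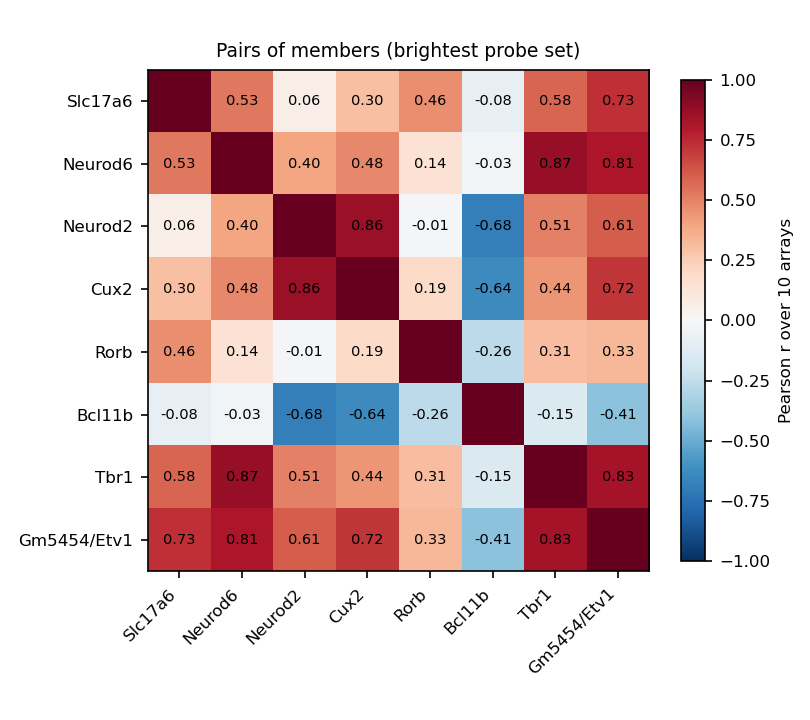
Each cell is the Pearson r of 2 members over the 10 arrays, for the brightest probe set of each gene, on a scale of -1 (blue) to 1 (red). The 3 highest cells that hold by rank join Neurod6, Tbr1 and Gm5454/Etv1, at 0.87, 0.83 and 0.81, and Bcl11b is below 0 throughout.

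The genes whose pattern over the 10 arrays was most like each bright member were found among the 4917 genes with a bright probe set. Groups were not centred for these r values, so a difference between the labels also enters them. For Neurod6 they were Rnpc3, Tra2a and Mpdz (r = 0.95 each), of which the first encodes a protein of the minor spliceosome and Tra2a a splicing regulator. Rnpc3 differed by -0.85, Tra2a by -0.43 and Mpdz by -0.21 (log2, labelled null minus labelled wild type), beside -0.48 for Neurod6. Nearest to Tbr1 were Atpif1, the inhibitor of the mitochondrial ATP synthase (r = 0.98), Plpp1 (0.97) and Vstm2a (0.97). Utrn, the dystrophin relative utrophin, came first for Slc17a6 (r = 0.96), followed by Tbrg1 and Rhoq (0.95 each). By rank these 3 were less close, with rho = 0.89 for Utrn, 0.62 for Tbrg1 and 0.78 for Rhoq.

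Lamtor3, a scaffold of the lysosomal signalling complex, was nearest to Rorb (r = 0.93), then Plpbp and Pgm1 (0.89 each). Yaf2, Ppa2 and Pex3 were nearest to the Gm5454 and Etv1 probe set (r = 0.97, 0.97 and 0.96). None of these 15 genes is in the lists of layer and cell type markers used here.

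Other genes of excitatory neurons and layers gave a similar picture. Of 39 listed, 31 had a probe set of their own, 60 probe sets in all, and 0 passed after adjustment. At an unadjusted limma p under 0.05, 0 were higher and 3 were lower on the arrays labelled null (over all probe sets 1.24% were higher and 2.43% lower), and the list's median difference was -0.02.

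The 3 were of 2 genes. Foxp1, a forkhead factor of mid- and deep-layer neurons, had 2 of its 7 probe sets among them. The dim 1438802_at averaged 2.06 ± 0.06 in the null group and 2.30 ± 0.12 in the wild type group, a difference of -0.24 ± 0.06 (SE, exact permutation p = 0.00794), with no overlap. The bright 1455242_at averaged 10.69 ± 0.23 in the null group and 10.93 ± 0.09 in the wild type group, a difference of -0.24 ± 0.10 (SE, exact permutation p = 0.103). The other Foxp1 probe sets differed by -0.08 to 0.04, with none past the threshold, so the gene's probe sets did not give 1 answer.

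Mef2c, a factor of maturing excitatory neurons, had 1 of 5 probe sets past the unadjusted threshold, 1421027_a_at, with 12.80 ± 0.15 in the null group and 12.98 ± 0.08 in the wild type group (exact permutation p = 0.0476). Its other probe sets differed by -0.04 to 0.14. Neurod1, of the same family as Neurod6 and Neurod2, differed by -0.27 (exact permutation p = 0.206) at its probe set 1426412_at and by 0.09 at 1426413_at.

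Deep-layer markers outside the 9 genes ran both ways. At the brightest probe set, Tle4 differed by 0.01, Crym by -0.05 and Ccn2, a marker of the deepest cortical neurons, by 0.04. Nr4a2, a nuclear receptor of the same deep neurons, differed by 0.26 (exact permutation p = 0.286). Pcp4, a calmodulin-binding protein of deep-layer neurons, differed by -0.19 (exact permutation p = 0.143), and Ldb2 by -0.18 (exact permutation p = 0.246). Rora, the relative of Rorb, differed by -0.28 at its brightest probe set (exact permutation p = 0.0873), the opposite sign to Rorb, and a difference between them was not tested.

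Marker lists of the other cells in a piece of cortex had 0 probe sets past the adjusted threshold as well. At an unadjusted limma p under 0.05, 1.24% of all probe sets were higher and 2.43% lower on the arrays labelled null. Inhibitory interneuron genes had 1 higher and 0 lower of 17 probe sets at that threshold. The 1 was Reln, whose secreted product guides the layering of the cortex, with 10.37 ± 0.23 in the null group and 10.02 ± 0.11 in the wild type group, a difference of 0.34 ± 0.10 (SE, exact permutation p = 0.0159).

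Oligodendrocyte genes had 1 higher and 4 lower of 28 probe sets, where 1.24% of all probe sets were higher and 2.43% lower. The mean level of the list lay between 7.84 and 8.27 in the null group and between 8.04 and 8.48 in the wild type group. Mbp, a major protein of myelin, was lower at 1433532_a_at, by -0.23 ± 0.07 (SE, exact permutation p = 0.00794), and higher at the dim 1425263_a_at, by 0.20 ± 0.08 (SE, exact permutation p = 0.0556). Its other probe sets differed by -0.16 to 0.07, with none past the unadjusted threshold. Cnp differed by -0.23 at 1418980_a_at, -0.09 at its brightest probe set 1437341_x_at and -0.05 at 1449296_a_at (log2). The dim Olig2 probe set differed by -0.18 (exact permutation p = 0.0476). Cldn11, a protein of myelin junctions, differed by -0.52 (exact permutation p = 0.0556). The part of these cells in the member values was not tested.

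Astrocyte genes had 1 of 24 probe sets lower, S100b (-0.25, exact permutation p = 0.0714), and endothelial genes 2 of 16, both of Egfl7. For these and the lists that follow, the shares over all probe sets were again 1.24% higher and 2.43% lower. Microglia, hippocampal and choroid plexus lists had 0 of 17, 0 of 12 and 0 of 12 past the unadjusted threshold. For neighbouring brain regions that a dissection could include, striatal genes had 1 higher, Rarb, and 2 lower of 21, the lower ones being the Foxp1 probe sets above. Thalamic genes, relevant to Slc17a6, had 0 of 15. Their mean level lay between 3.25 and 3.50 in the null group and between 3.11 and 3.35 in the wild type group. Zic1 averaged 7.41 in the null group and 7.47 in the wild type group, and Rgs16 reached 5.19 in the null group and 5.09 in the wild type group at its brightest probe set. Calb2, which is also on the hippocampal list, averaged 3.66 ± 0.77 in the null group and 3.19 ± 0.13 in the wild type group (SD, exact permutation p = 0.119). The first null array read 5.02 for Calb2, far above the rest, and was also the highest for Zic1, at 8.03. The means of every Tcf7l2, Lef1 and Gbx2 probe set lay below 2 in both groups.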

How the data were processed

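Cortical RNA of 10 mice was hybridised to Affymetrix mouse expression arrays, 1 per mouse. The deposited values are log2 expression. The authors used GC-RMA, in which the GC content of a probe sets its background, arrays are normalized together and probes are summarised (no version is named in the sources). Quantile steps and summarisation can shrink small differences, and low signal limits dim probe sets, while the number of arrays limits precision.

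Samples were grouped by label. Of 22690 probe sets, 64 controls were set aside. The platform annotation gave 1 gene for 20380 of the 22626 tested, several for 691 and none for 1555, and 20351 were matched to RefSeq on GRCm38.p6, used for names, gene order and promoters. Differences of labelled null minus labelled wild type were fitted with limma 3.58.1 in R 4.3.3 (lmFit, eBayes), adjusted over all 22626 at a threshold of 0.05, and single probe sets were tested by exact permutation. The fit was tested on simulated data with changes placed on bright probe sets. At the adjusted threshold it recovered 43 of 100 changes of 1.4-fold and 86 of 100 of 2-fold, with 6 false calls. Correlations used 100000 resamples. P-values measure the spread between mice. Members and lists were chosen with earlier results of these data known. Named were all member probe sets, up to 4 genes of each list with the smallest p under 0.05, and the 3 genes nearest to each bright member. Neurod1, Tle4, Crym, Ccn2, Nr4a2, Pcp4, Ldb2, Rora, Zic1, Rgs16, Calb2, Tcf7l2, Lef1 and Gbx2 and further probe sets of named genes were added after their values were seen.

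Alternatives were a replicate block, array weights, quantile normalization, median centring, a robust prior with an intensity trend, the methods' t-test, a floor at 4, bright probe sets alone and leaving out each array. Those for the pairs were chosen after seeing the data.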

Additional observations from a re-analysis of the deposited data

Results flagged for a closer look

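Of 46 groups of 5 arrays screened, 3 had 1 array far from the rest, and chance gives about 1 in 20. On the arrays labelled wild type, Neurod2 probe set 1418995_at read 4.48 on the second array, with the next at 4.08. The same array read 8.48 for the Gm5454 and Etv1 probe set 1450684_at, with the next at 8.0. On the arrays labelled null, Mbp probe set 1433532_a_at read 13.73 on the second array, below the next at 13.85.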

How the results depend on the processing

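No alternative brought a member past the adjusted threshold. Of 173 alternative member differences under 18 settings, 164 kept their direction and 9, of 3 genes near 0, reversed. The replicate block, the robust prior, the t-test and the fit on bright probe sets alone leave the difference itself unchanged. Values under those settings could not reverse, so the tally overstates how firm the directions are. Slc17a6 1428379_at was -0.027 with array weights and between -0.17 and 0.16 with each array left out. Bcl11b was -0.0096 with array weights and between -0.032 and 0.061 with each array left out, and Cux2 was between -0.10 and 0.00030. The count of members with an unadjusted p under 0.05, 0 of 10, was 1 with the replicate block, median centring, array weights, a robust prior with an intensity trend and without probe sets of a mean under 5, and 2 with quantile normalization. It was 0 to 4 with each array left out, 4 without null array 5 and 2 without the first wild type array.

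The count of correlated pairs, 3 of 28, was 1 with quantile normalization, 4 with group means removed and 0 to 4 with each array left out, 0 without the fourth null array and 1 without null array 1 or 5 or wild type array 2. The r of Neurod6 with Tbr1 stayed between 0.83 and 0.91 in these left-out sets.

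Same-numbered arrays of the 2 groups deviated together at r between 0.07 and 0.54, and 1 of 5 arrays correlated best with its own number, so the numbers were not taken to pair the mice. The replicate block moved the count only as given, through Rorb, at an unadjusted limma value of 0.0319. The causes were not tested. With 5 arrays a group the intervals are wide, and Neurod2, Cux2 and Bcl11b were read only by dim probe sets.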
